A study of Mus musculus with 2 samples.

Results

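Open chromatin was mapped by ATAC-seq, in which the Tn5 transposase cuts accessible DNA, in regulatory T cells, and 602 of the 34610 peaks (1.74%) lay at promoters of protein-coding genes that are poor in CpG. The peaks were those of the authors' list thresholded on the irreproducible discovery rate (IDR), with each interval represented by its summit of highest signal. A peak was kept when its summit lay within 1 kb of the annotated 5′ end of exactly 1 protein-coding gene of GENCODE M21, and when the observed/expected CpG ratio of the sequence within 1 kb on either side of that 5′ end was below 0.3. The 602 peaks belonged to 553 genes, of which 506 had 1 such peak, 45 had 2, and Ikbke and Gbp2 had 3.

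The cells were primary regulatory T cells of a male adult mouse of 4 months from the cross Foxp3CreERT2 x Rosa26YFP, in which a tamoxifen-inducible Cre is expressed from the Foxp3 locus and a YFP reporter sits at Rosa26. The labels trace the cells to a hematopoietic cell of the bone marrow and name no treatment. The 2 libraries were technical replicates of 1 biological replicate and were pooled in the deposited lists, so no spread between animals exists and no test was made. Each interval below is an exact 95% interval for counting error over peaks or genes of this 1 pool. Read counts are not part of the lists, so the depth is unknown.

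CpG dinucleotides are depleted from most of the mammalian genome because methylated cytosine mutates to thymine, and many promoters of widely expressed genes escape this loss as CpG islands. Promoters without an island are typical of genes used in few tissues, and their activity depends more on sequence-specific factors of the cell type. In T cells those factors include the ETS family (ETS1, FLI1, ELF1, GABPA), which binds the core GGAA, and the RUNX family (RUNX1, RUNX3), which binds TGTGGT, and both act at promoters and enhancers of T cell receptor and cytokine receptor genes.

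The sequences at the summits of 8 such promoters of T cell genes show what these promoters look like. They are from the windows of highest signal among members of the lists of T cell, regulatory T cell, transcription factor and receptor genes, each reaching 100 bp to either side of the summit and ended at most 50 bases into the transcript. Sequences are from GRCm38 (mm10), 5′ to 3′ in the sense of the gene. Capitals mark matches to the ETS letters AGGAAG or CGGAAG and to the RUNX letters TGTGGT, on either strand.

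Runx3: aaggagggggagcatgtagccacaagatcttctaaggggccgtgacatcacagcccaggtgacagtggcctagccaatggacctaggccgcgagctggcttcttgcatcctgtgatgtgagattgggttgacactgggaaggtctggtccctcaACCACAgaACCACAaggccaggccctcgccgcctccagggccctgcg
Lat: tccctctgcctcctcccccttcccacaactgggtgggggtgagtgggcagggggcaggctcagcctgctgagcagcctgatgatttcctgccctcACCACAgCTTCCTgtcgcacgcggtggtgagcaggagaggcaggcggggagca
Tespa1: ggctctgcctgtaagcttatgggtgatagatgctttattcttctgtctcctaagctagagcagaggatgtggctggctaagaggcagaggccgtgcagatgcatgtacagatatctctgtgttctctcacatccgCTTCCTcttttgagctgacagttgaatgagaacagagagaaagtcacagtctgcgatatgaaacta
Txk: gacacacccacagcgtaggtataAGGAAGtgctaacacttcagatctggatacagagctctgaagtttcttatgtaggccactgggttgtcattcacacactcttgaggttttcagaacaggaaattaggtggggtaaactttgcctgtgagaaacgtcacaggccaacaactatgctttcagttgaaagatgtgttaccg
Cd3g: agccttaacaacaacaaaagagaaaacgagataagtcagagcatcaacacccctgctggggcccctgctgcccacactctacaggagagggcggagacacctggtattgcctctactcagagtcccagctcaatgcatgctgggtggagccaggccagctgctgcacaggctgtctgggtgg
Icos: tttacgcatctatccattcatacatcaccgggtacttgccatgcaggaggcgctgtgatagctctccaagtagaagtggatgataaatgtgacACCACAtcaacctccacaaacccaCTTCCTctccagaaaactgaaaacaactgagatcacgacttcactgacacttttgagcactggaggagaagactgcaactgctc
Zap70: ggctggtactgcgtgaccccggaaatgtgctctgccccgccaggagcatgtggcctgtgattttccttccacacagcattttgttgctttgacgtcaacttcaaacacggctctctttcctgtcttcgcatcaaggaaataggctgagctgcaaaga
Ccr7: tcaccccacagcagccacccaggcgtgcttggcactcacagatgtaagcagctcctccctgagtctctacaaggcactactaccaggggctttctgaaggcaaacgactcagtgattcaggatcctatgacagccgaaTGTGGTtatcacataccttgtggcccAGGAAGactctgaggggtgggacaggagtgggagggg

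Runx3, which encodes a RUNX factor prominent in CD8 T cells, was shown at chr4:135120357-135120557 on the plus strand, and its window held 2 RUNX matches and no ETS match. Lat, the adaptor that T cell receptor signals pass through, was shown at chr7:126369521-126369668 on the minus strand, where 1 RUNX match and 1 ETS match stood beside each other. Tespa1, a regulator of T cell receptor signalling in thymocytes, was shown at chr10:130322697-130322897 on the plus strand and Txk, a TEC family kinase, at chr5:72752754-72752954 on the minus strand, each with 1 ETS match. Icos, a costimulatory receptor, was shown at chr1:60977749-60977949 on the plus strand, and Ccr7, the chemokine receptor for homing to lymph nodes, at chr11:99155119-99155319 on the minus strand. The Icos and Ccr7 windows each held 1 ETS and 1 RUNX match. Cd3g, a chain of the T cell receptor complex, at chr9:44980382-44980563 on the minus strand, and Zap70, the kinase that binds the phosphorylated receptor, at chr1:36761691-36761847 on the plus strand, held neither in the part shown.

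CpG-poor 5′ ends were seldom open. Of 7736 protein-coding genes with a ratio below 0.3, 601 (7.77%, interval 7.18 to 8.39%) had a summit within 1 kb of the 5′ end, which is what open means below. The share was 56.2% (3800 of 6762) at ratios of 0.3 to 0.6, 80.5% (5991 of 7440) at 0.6 or more, and 47.4% over all 21938 coding genes. Within the CpG-poor range it was 2.75% at ratios below 0.1, 5.46% from 0.1 to 0.2 and 14.1% from 0.2 to 0.3, and the next step, from 0.3 to 0.4, stood at 29.8%. The intervals of these 4 steps did not overlap, so the share was higher at each step across the threshold of 0.3. Of the 601 open CpG-poor genes, 48 are not among the 553 because another coding 5′ end lay in reach of every summit near them.

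**Figure D1:**
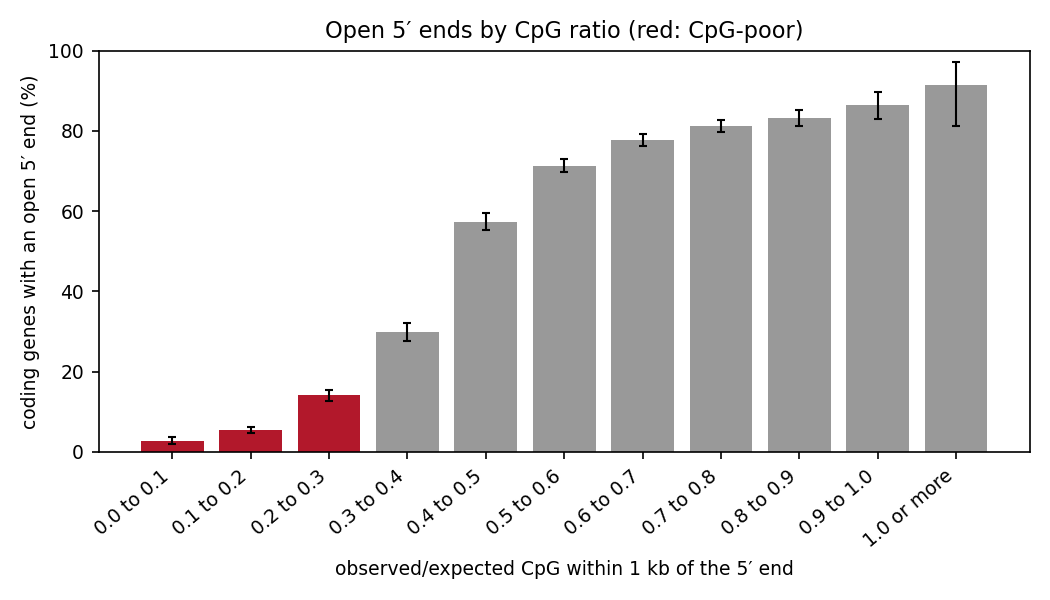
Share of protein-coding genes with a peak summit within 1 kb of the 5′ end (y axis, percent) by observed/expected CpG ratio within 1 kb of the 5′ end (x axis), with CpG-poor genes in red and exact 95% intervals for counting error as bars. The 3 red bars stand at 2.75%, 5.46% and 14.1%, and the bars at ratios of 0.6 or more all stand at 77.8% or higher.

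The CpG ratio ran up to the threshold without a gap. Just inside it lay Zfp97 with a signal of 28.0 and Zfp677 with 24.3, both zinc finger genes at a ratio of 0.29999, and Cd37, a tetraspanin of leukocytes, at 0.2995 with 20.6. Just outside lay Gm15446 at 0.3002 with a signal of 24.5, and Siah3 at 0.3004 with 2 peaks of 18.6 and 6.88. The lowest ratios among open promoters were those of F830016B08Rik (0.0246), Defb6 (0.0382) and Gbp10 (0.0401), with signals of 20.4, 17.1 and 16.7. Across the 602 peaks the ratio and the signal had a Spearman rho of 0.0753, a description over peaks that share 1 pool.

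Peaks at open CpG-poor promoters had a lower signal, a smaller width and fewer summits than those at other promoters. In signal, an enrichment value that the authors gave to every peak and whose reference is not stated, their median was 12.7 (interval 12.1 to 13.6). It was 18.2 (17.8 to 18.5) at the 3228 open single-gene promoters with a ratio of 0.3 to 0.6, 15.8 (15.53 to 16.03) at the 4655 with 0.6 or more, and 12.1 (11.9 to 12.1) at the 20919 peaks over 1 kb from any annotated start site. Median width followed another order, with 676 bp at CpG-poor promoters, 888 bp and 1063 bp in the 2 richer classes and 562 bp at distal peaks. Of the CpG-poor peaks, 58.8% had more than 1 summit, against 80.3%, 86.0% and 43.6%. In width and in summits the CpG-poor promoters lay between distal peaks and the other promoters, while the signal intervals of CpG-poor promoters and distal peaks overlapped. The median −log10 p that the authors gave per peak was 134, against 270 and 315 in the richer classes and 83.9 at distal peaks.

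The summit of a CpG-poor promoter lay a median 82.5 bp from the 5′ end, against 60 bp and 80 bp in the 2 richer classes. It was upstream in 63.0% (58.1% and 66.1% in the richer classes) and within 200 bp in 66.3% (74.5% and 72.6%). A larger share stood far away, with 21.9% at 500 to 1000 bp against 11.8% and 11.7%, and the interval covered the 5′ end itself in 73.1%, against 88.6% and 89.7%. Some of the distant summits sat at another start of the same gene, since 73.3% lay within 200 bp of an annotated transcript start of it. A start site of another gene, coding or not, stood within 1 kb of the summit at 56 peaks (9.30%), and 66 (11.0%) had their 5′ end inside another coding gene.

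Open CpG-poor promoters stood in neighbourhoods with other peaks. Between 1 and 20 kb from the 5′ end they had a median of 2 further peaks, against 1 in each richer class and 0 at the 7135 CpG-poor 5′ ends that were not open. At least 1 such peak was found for 79.4% of the CpG-poor open genes, 70.5% and 63.4% of the richer ones, and 29.1% of the closed CpG-poor genes. Among the 553 genes the most were 10, at Akna, which encodes an AT-hook protein, and at Ltb, which encodes lymphotoxin beta, and 8 were counted at Il2ra, the interleukin 2 receptor alpha chain.

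The strongest promoters were a mixed group. Gm20594 had the highest signal, 40.9, at chr6:79818074-79818416 and 397 bp inside the gene, but its window shared 20.5% of its 31-letter words with the mitochondrial genome, the only one of the 602 to share any. After it came 6720489N17Rik (34.8, chr13:62623733-62624531), Btn2a2 (34.1, chr13:23488551-23489212), a butyrophilin of the immunoglobulin superfamily, and Tpp1 (33.7, chr7:105751774-105752617), a lysosomal peptidase. Nckap1l, the haematopoietic subunit of the WAVE actin-regulatory complex, had 32.3 (chr15:103453479-103453917), and Trim21, an antibody receptor and ubiquitin ligase of the cytosol, had 31.98 (chr7:102565115-102565954). The next were Gm5141 (31.6), Fn3k (28.9), a fructosamine kinase, D130040H23Rik (28.7) and Rasgrp4 (28.3), a Ras exchange factor. In 9 of these 10, all but Gm20594, the peak covered the 5′ end, with the summit at most 84 bp from it.

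At the low end, signals were down to 2.41. Traf1, a signal adaptor of TNF receptors, had 2.41 at chr2:34961780-34962028, and Tnfrsf18, the GITR receptor that marks regulatory T cells, had 2.69 at chr4:156026175-156026375. Tspoap1 and the upstream peak of Ptpn22, the phosphatase that restrains T cell receptor signals, each had 3.04, and Nutm1 had 3.12. None of these 5 peaks covered the annotated 5′ end. Ptpn22 also had a peak of 10.98 that lay 444 bp inside the gene.

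Most CpG-poor genes of T cell surface receptors and their signalling were open. Gene lists were read against the 7.77% of all CpG-poor coding genes that were open. Of the 38 genes of T cell surface and signalling, 31 were CpG-poor, and 28 of those were open (90.3%, interval 74.3 to 98.0%). The 27 that met the rule had a median signal of 11.3, and Cd8b1, open with another coding 5′ end in reach, did not. Lat was highest with 22.3 (peak chr7:126369189-126370012), followed by Tespa1 with 21.3 (chr10:130322444-130323167) and Txk with 18.6 (chr5:72752535-72753090). Cd226, Cd3g, Icos, Zap70, Cd69, Cd7, Themis, Trat1, Sit1, Cd6, Ptpn22, Sh2d2a, Cd5, Sh2d1a, Lcp2, Lck, Fyb, Cd40lg, Cd52 and Cd27 were among those that lay between 18.1 and 4.96. Cd4, Cd3d and Cd2, which encode the lineage coreceptor, a chain of the receptor complex and an adhesion receptor, closed the list with 4.56, 4.15 and 4.08. The 3 CpG-poor genes of the list without an open 5′ end were Cd28, Cd8a and Ptprcap. Most of these peaks were of moderate signal, and when the count was limited to peaks at or above the list's median signal, 13.2, 8 of the 31 were open beside 4.01% of all CpG-poor genes.

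Genes of the regulatory T cell signature were open in 10 of 16 CpG-poor cases (62.5%, interval 35.4 to 84.8%). Il2rb, the shared beta chain of the interleukin 2 and 15 receptors, had 13.1 (chr15:78494828-78495549), Tnfrsf4, the OX40 receptor, 12.02 (chr4:156013435-156014266), and Tigit, an inhibitory receptor, 11.1 (chr16:43663923-43664646). Gzmb (11.1), Il2ra (9.67), Pdcd1 (8.19), Havcr2 (6.47), Ctla4 (5.47), Izumo1r (4.10) and Tnfrsf18 (2.69) followed, so all 10 but Il2rb lay below the median of the whole set, 12.7. Itgae, Ebi3 and Il10 were CpG-poor and not open. At or above the median signal of the whole peak list, 13.2, 0 of the 16 were open, and with the longer pseudoreplicated list 13 were, Ebi3 included, beside 10.2% of all CpG-poor genes. Foxp3 itself, the lineage factor, is outside the CpG-poor class with a ratio of 0.674 at its annotated 5′ end, where no summit was listed within 1 kb in either the thresholded or the pseudoreplicated list. That 5′ end is the outermost base of the gene, and peaks at other starts of Foxp3 were not looked up. Ikzf2 and Ikzf4, which encode Helios and Eos, are also outside the CpG-poor class, with ratios of 0.8996 and 0.311, and both were open.

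Of the 30 genes in the list of T cell transcription factors, 3 were CpG-poor, beside 7736 of all 21938 coding genes. Runx3 alone of these was open, with 26.7 at chr4:135120080-135120720, while Ets1 was not. The Runx3 ratio of 0.2958 lay near the threshold, its summit 195 bp upstream, and a start site of another gene lay within 1 kb of it. At a threshold of 0.25 the list had 1 CpG-poor gene, which was not open, and with the CpG ratio over 500 bp 0 of 2 were. In the pseudoreplicated list Ets1 was open too, which gave 2 of 3.

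Receptors for cytokines and chemokines were open in 11 of 20 CpG-poor genes (55.0%). Ccr7 had 14.8 (chr11:99154917-99155541) and Il18rap, a chain of the interleukin 18 receptor, 13.9 (chr1:40514824-40515686). Il18r1, Cxcr6, Il12rb1, Il21r, S1pr4, Il7r and Il9r ranged from 12.7 to 4.08, and Il2rg was open without meeting the rule. Ccr1, Ccr2 and Ccr3 were among the 9 that were not open. Of the cytokines, 7 of 24 (29.2%) were open, and 6 met the rule. Fasl, the death ligand, had 18.01 (chr1:161788166-161788839), Tnfsf14 15.5 (chr17:57193914-57194867) and Il2 10.6 (chr3:37125668-37126841), and Lta, Tnfsf8 and Ltb ranged from 8.58 to 7.29. Among those that were not open were Il3, Il4 and Il5, and no CpG-poor gene whose symbol starts with Ccl had an open 5′ end (0 of 20). The receptor count was 4 at or above the median signal, and the cytokine count was 11 in the pseudoreplicated list, Ccl4 and Ccl5 included, and 3 at or above the median signal. It was 3 of 17 at ratios below 0.25 and 3 of 19 with the CpG ratio over 500 bp.

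Genes used across blood cells were also among the open set. Haematopoietic signalling genes were open in 18 of 21 CpG-poor cases (85.7%), led by Nckap1l, Was, the actin regulator lost in Wiskott-Aldrich syndrome, with 27.3 (chrX:8090192-8090922), and Arhgap15 with 17.5 (chr2:43748198-43749063). The others were Dock2, Traf3ip3, Arhgap45, Fermt3, Cd74, Inpp5d, Arhgef6, Arhgdib, Ptpn7, Sash3, Ptprc, Vav1, Laptm5, Lsp1 and Rac2, from 17.4 to 5.62, and Ptpn6, Cytip and Rhoh were open in the pseudoreplicated list only. Integrin and adhesion genes were open in 9 of 11 (81.8%). Cd37 had 20.6 (chr7:45238563-45239632), Icam2 17.8 (chr11:106387640-106388470) and Itgb2, the beta chain of LFA-1, 16.3 (chr10:77529939-77530656). Itgal, Itgb7, Spn, Selplg and Cd53 ranged from 15.96 to 3.76, and the myeloid integrins Itgam and Itgax were the 2 that were not open. At or above the median signal the counts were 8 of 21 and 4 of 11. SLAM family receptors were open in 5 of 9, with Ly9 at 17.6 (chr1:171606652-171607697), Cd84 at 11.0 (chr1:171840450-171841041), Slamf1 at 9.84 (chr1:171766629-171767567), Cd48 at 8.80 and Slamf6 at 4.01. Slamf7, Slamf8 and Slamf9 were not open. In the pseudoreplicated list Slamf8 and Slamf9 were open, which gave 7 of 9, and at or above the median signal 1 of 9 was open.

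**Figure D2:**
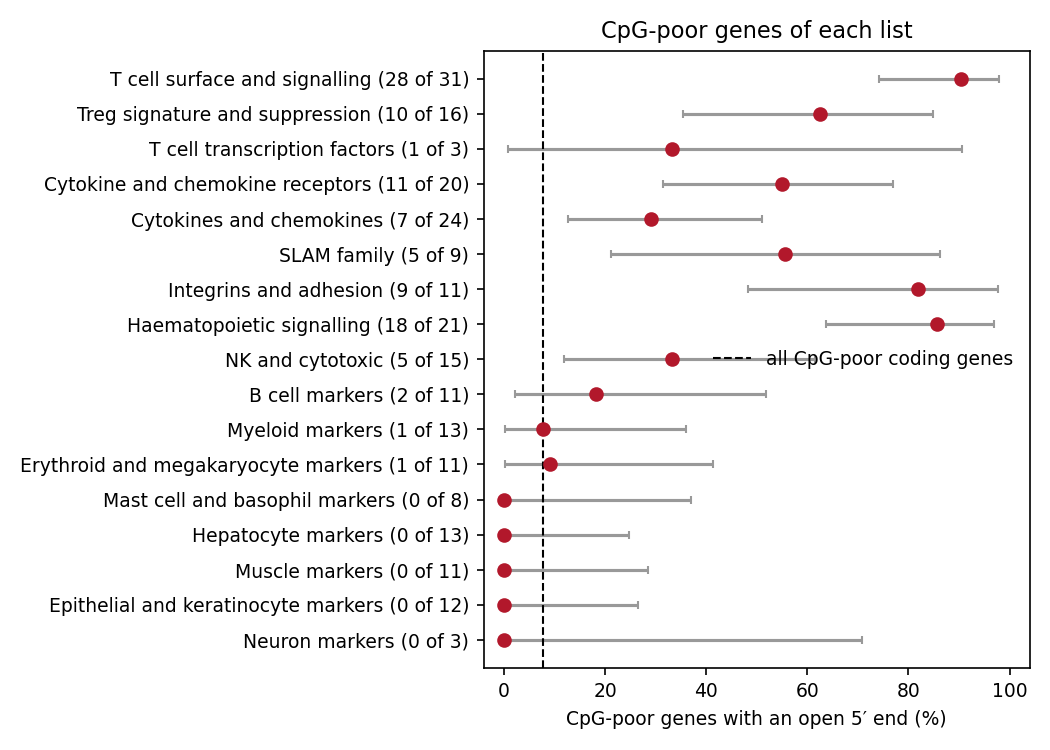
Percent of the CpG-poor genes of each list that had an open 5′ end (x axis), with exact 95% intervals for counting error and, after each name, the count of open over CpG-poor genes. The dashed line marks the 7.77% of all CpG-poor coding genes. The lists of T cell surface and signalling, haematopoietic signalling and integrin genes stand at 81.8% or above. The mast cell, hepatocyte, muscle, epithelial and neuron lists stand at 0.

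Lists drawn up for other cell types mark what else the pool could hold. They share Gzmb with the regulatory T cell list and Itgam with the integrin list. Of NK and cytotoxic genes 5 of 15 were open. They were Prf1, perforin, with 19.3 (chr10:61297524-61297872), Ctsw with 16.8 (chr19:5468384-5468777), Cst7 with 15.9 (chr2:150569728-150570867), Gzma with 12.5 and Gzmb with 11.1. Ncr1, Klrb1c and Klrc1 were not open, nor were Gzmk and Nkg7, which also belong to the granule, nor any of the 25 CpG-poor genes whose symbol starts with Klr. In the pseudoreplicated list 7 of the 15 were open, with Klrb1c and Gzmk added, and at or above the median signal 3 were. B cell markers were open in 2 of 11, Cr2, a complement receptor, with 23.7 (chr1:195176345-195177149), and Cd72 with 4.53 (chr4:43454138-43454369), while Ms4a1 and Cd79b were not. The B cell count was 4 of 11 in the pseudoreplicated list, where Cd79b and Vpreb3 were open, 1 at or above the median signal, 1 of 10 with the CpG ratio over 500 bp, and 0 of 8 at ratios below 0.25. Myeloid markers were open in 1 of 13, Ctss with 8.22 (chr3:95526393-95527068), and Csf1r, Lyz2 and Itgam were not. Erythroid and megakaryocyte markers were open in 1 of 11, Gata1 with 12.1 (chrX:7977736-7978313), and Hba-a1, Hbb-bs and Hbb-bt were not. No CpG-poor marker was open of mast cells and basophils (0 of 8, with Cpa3, Mcpt4 and Mcpt8), hepatocytes (0 of 13, with Alb, Apoa1 and Apoa2), muscle (0 of 11, with Acta1, Actc1 and Mb), epithelia (0 of 12, with Krt5, Krt13 and Krt14) or neurons (0 of 3, Rbfox3, Gad1 and Dlg4). At or above the median signal no myeloid or erythroid marker was open, at ratios below 0.25 no myeloid marker was (0 of 10), and with the CpG ratio over 500 bp 1 of 9 muscle markers was. These counts cover the listed markers only. Members in none of the lists, such as Rasgrp4, Spi1 and Nfe2, were not assigned to a cell type. A part of other blood cells in the open set was not tested.

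The lists together named 94 of the 553 genes, and 459 were in none of them. Members outside them included genes of the interferon response, and a list of interferon-stimulated genes was therefore drawn up after the values had been seen, so its counts only describe. Of its 46 CpG-poor genes 38 were open and 35 met the rule, with a median signal of 14.5. Trim21 led it with 31.98, followed by Trim30a with 26.99 (chr7:104464722-104465777) and Oas1c with 26.9 (chr5:120811920-120812904). Rsad2, the antiviral enzyme viperin, had 25.01, Irf9, a DNA-binding factor of the interferon response, 21.9, Irf7 14.1, Mx1 13.4 and Isg15, a ubiquitin-like modifier, 7.96. Sp100, Ifi44, Oas2, Oas3, Oas1g, Oas1a, Tlr3 and Rtp4 were the 8 CpG-poor genes of the list that were not open. A list of MHC class II genes made in the same way had 7 of 10 CpG-poor genes open, H2-Aa with 27.5 (chr17:34287690-34288102), H2-Eb1 with 14.7 (chr17:34305637-34305951) and H2-DMb2 with 14.7 (chr17:34142866-34143425), then Cd74, H2-Ab1, H2-Ob and H2-Oa from 13.7 to 9.84. Ciita, H2-DMb1 and H2-Eb2 were not open. These genes present antigen and are abundant in B cells and macrophages among others, and the counts of B cell and myeloid markers stand above.

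The interferon response is served by IRF factors, which bind paired GAAA repeats, here searched as GAAANNGAA on both strands. The 2 strongest interferon promoters with such a match show it in capitals.

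Trim21: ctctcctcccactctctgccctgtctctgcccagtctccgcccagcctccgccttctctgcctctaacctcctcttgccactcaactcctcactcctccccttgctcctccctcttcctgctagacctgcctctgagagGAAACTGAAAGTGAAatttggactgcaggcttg
Trim30a: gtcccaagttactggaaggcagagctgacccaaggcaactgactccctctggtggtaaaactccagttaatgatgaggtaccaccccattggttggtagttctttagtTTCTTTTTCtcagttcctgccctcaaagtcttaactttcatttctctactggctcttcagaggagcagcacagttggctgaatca

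The Trim21 window, chr7:102565437-102565608 on the minus strand, held 2 overlapping matches near the 5′ end, and the Trim30a window, chr7:104465144-104465336 on the minus strand, held 1 on the opposite strand. An IRF match was found in 21 of the 40 peaks of interferon-stimulated genes (52.5%), in 0 of the 9 peaks of MHC class II genes, and in 58 of the 553 peaks of genes in neither list (10.5%).

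**Figure D3:**
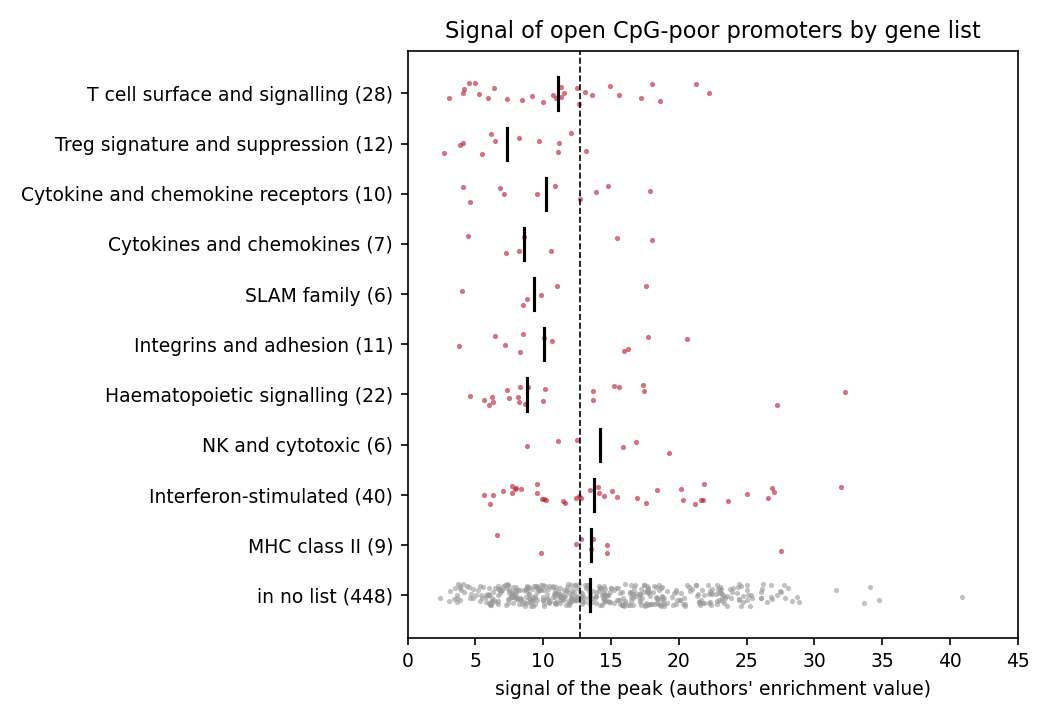
Signal of each open CpG-poor promoter peak (x axis, the authors' enrichment value) by gene list, with the number of peaks after each name, a black tick at the median and a dashed line at the median of all 602 peaks, 12.7. Points are jittered vertically, lists with fewer than 5 peaks are left out, and the interferon and MHC class II lists were made after values had been seen.

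Families named by symbol differed widely in how many of their CpG-poor members were open. Of the olfactory receptors, 6 of 1128 were open (0.532%, interval 0.195 to 1.15%), led by Olfr433, Olfr156 and Olfr525, and of the vomeronasal receptors (Vmn) 0 of 328. Keratins (0 of 35) and keratin-associated proteins (0 of 52) were not open, cytochromes P450 were open in 2 of 80, Cyp4f13 and Cyp4f16, and beta-defensins in 1 of 41, Defb6. Gimap genes, small GTPases of lymphocytes that sit in 1 cluster, were open in 7 of 8, led by Gimap8 with 17.1, Gimap6 with 11.5 and Gimap3 with 9.22. Symbols starting with Cd followed by a number were open in 24 of 64 (37.5%), interleukins and their receptors (Il) in 15 of 55 (27.3%), and solute carriers (Slc) in 8 genes (7.77%), the same share as all CpG-poor genes. Zinc finger genes (Zfp) were open in 21 of 71 (29.6%), led by Zfp97, Zfp950 and Zfp825, and Trim genes, a family looked at after values had been seen, in 10 of 31, of which Trim21, Trim12c and Trim30a were highest.

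Some of these promoters have near-identical copies, and how reads from such copies were placed is not stated. In 46 of the 602 windows (7.64%) at least 50% of the 31-letter words occurred elsewhere on the chromosomes, among them Zfp97, Trim12a, Trim5 and Ly6a, where all did, and Trim30a (67.8%), Gbp10 (90.6%), Ifit3 (88.9%) and Gm5141 (86.0%). Those 46 had a median signal of 16.3, against 12.5 for the others. No window of the T cell, regulatory T cell, transcription factor or receptor lists was among them.

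Of 19 consensus motifs searched on both strands within 100 bp of each summit, the ETS letters AGGAAG were the most frequent at open CpG-poor promoters. They were found in 52.5% of the windows (interval 48.4 to 56.5%). The share was 28.0% in windows 1 kb away on both sides, 30.2% at closed CpG-poor 5′ ends, 27.8% and 22.6% at open promoters of the 2 richer classes, 44.97% at distal peaks and 25.4% at all coding 5′ ends. When windows were centred on the 5′ end, as those of the closed genes were, the share among open CpG-poor genes was 45.6%. ETS factors also bind CGGAAG, which holds a CpG and is therefore rarer here by the choice of promoters. It was found in 14.5% of open CpG-poor windows, against 3.32% in their flanks, 3.29% at closed CpG-poor 5′ ends, 32.6% and 32.4% in the richer classes, 8.90% at distal peaks and 17.2% at all coding 5′ ends. In windows centred on the 5′ end its share among open CpG-poor genes was 11.9%. Either form was present in 60.8% (56.8 to 64.7%) of open CpG-poor windows, 51.2% and 47.3% of the richer ones, 49.9% of distal ones and 32.2% at closed 5′ ends.

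The RUNX letters TGTGGT were found in 25.1% of open CpG-poor windows (interval 21.7 to 28.7%). This share was close to that of distal peaks, 26.4%, and above the flanks (16.9%), closed CpG-poor 5′ ends (15.8%), the richer classes (9.51% and 6.12%) and all coding 5′ ends (2194 of 21938). In windows centred on the 5′ end, like those of the closed genes, the share among open CpG-poor genes was 20.3% (16.98 to 23.9%), against the 15.8% (14.9 to 16.6%) of closed ones. ETS letters without CpG and RUNX letters stood together in 12.6% of open CpG-poor windows, 11.9% of distal peaks, 4.74% of closed CpG-poor 5′ ends and 2.54% and 1.57% of the richer classes. Of these, only the closed windows were centred on the 5′ end. Matches of the 2 motifs overlapped in only 2 of the windows. The AP-1 letters TGANTCA were found in 9.97%, against 13.0% at distal peaks and 2.39% at the most CpG-rich promoters, and the IRF letters in 13.1%, against 10.4% and 3.39%. In windows centred on the 5′ end, AP-1 letters were found in 6.33% (4.45 to 8.69%) at open and 6.84% (6.27 to 7.45%) at closed CpG-poor 5′ ends, and IRF letters in 9.77% (7.42 to 12.6%) at open and 7.08% (6.49 to 7.70%) at closed ones, with overlapping intervals for both. Shares of AP-1 and IRF were 4.11% and 4.87% at all coding 5′ ends.

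Letters that hold a CpG were scarce by construction. The KLF/SP letters GGGCGG were found in 20.3% of open CpG-poor windows, against 56.4% and 69.6% in the richer classes and 40.02% at all coding 5′ ends, but 3.74% in the flanks and 6.53% at closed CpG-poor 5′ ends. In windows centred on the 5′ end, like those of the closed genes, their share among open CpG-poor genes was 19.35%. The NRF1 letters GCATGCGC were found in 1 window (0.166%), against 4.66% at the most CpG-rich promoters and 2.70% at all coding 5′ ends. YY1 letters AAGATGGC, which hold no CpG, were found in 2 windows (0.332%), against 4.38% and 2.79%. CCAAT was found in 27.7%, against 35.7% and 33.9% in the richer classes, 28.3% at closed CpG-poor 5′ ends and 28.2% at all coding 5′ ends. CACCC box letters CCACCC were found in 29.6%, against 18.4% in the flanks, 27.2% and 25.3% in the richer classes and 18.6% at distal peaks. NFAT letters GGAAAA were found in 13.8%, against 18.9% in the flanks, 10.9% and 10.6% in the richer classes and 14.5% at distal peaks. Windows centred on the 5′ end held CCACCC in 28.75% at open and 17.0% at closed CpG-poor genes, and GGAAAA in 16.3% and 17.9%. All coding 5′ ends had CCACCC in 23.2% and GGAAAA in 14.2%. In windows centred on the 5′ end, NF-kB letters GGGNNTTCC were in 6.51% at open and 3.11% at closed CpG-poor genes. CTCF core letters AGGGGGC were in 6.51% and 2.94%. TCF/LEF letters CTTTGA (11.2% and 13.5%) and GATA letters AGATAA (7.96% and 10.3%) were rarer at open ones, with overlapping intervals. At all coding 5′ ends these 4 stood at 4.26%, 9.12%, 8.76% and 5.37%. Base composition moved with these shares, with a mean GC of 52.3% in open CpG-poor windows, 46.6% in their flanks, 47.7% at closed CpG-poor 5′ ends, 61.5% and 66.5% in the richer classes and 48.8% at distal peaks. Its part in the motif shares was not tested.

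**Figure D4:**
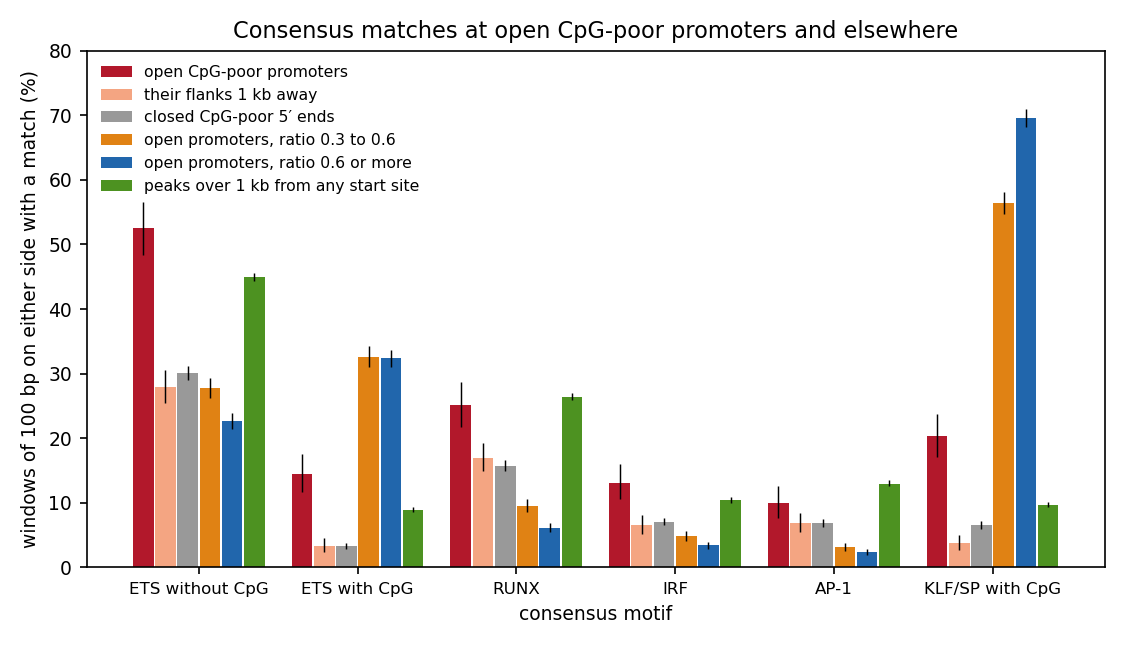
Percent of windows, 100 bp to either side of the summit or 5′ end, with at least 1 match (y axis) for 6 consensus motifs (x axis), with exact 95% intervals for counting error, at open CpG-poor promoters (red, leftmost in each group) and 5 sets of other windows. ETS letters without CpG stand at 52.5% and RUNX letters at 25.1% at open CpG-poor promoters, and KLF/SP letters at 69.6% at the most CpG-rich promoters.

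The ETS and RUNX matches were concentrated at the summit. In bins of 50 bp, ETS letters without CpG were found at 23.8% of CpG-poor summits in the 50 bp downstream of it and 21.8% in the 50 bp upstream, against 7.37% and 6.87% at promoters of ratio 0.6 or more. RUNX letters reached 9.80% just upstream of the CpG-poor summits and 8.64% just downstream, against 1.81% and 1.53% at the CpG-rich promoters. KLF/SP letters had their highest share at the summit in both classes, 9.14% in the 50 bp upstream of it at CpG-poor promoters and 32.5% in the 50 bp downstream of it at CpG-rich ones.

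**Figure D5:**
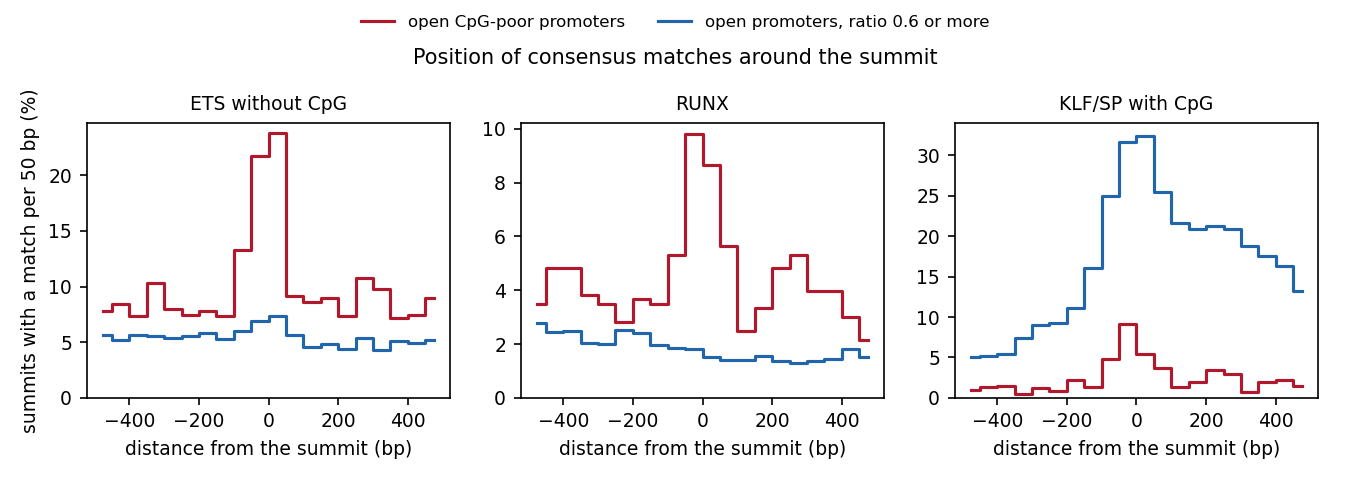
Percent of summits with a match in each 50 bp bin (y axis, own scale in each panel) by distance from the summit in the sense of the gene (x axis), for open CpG-poor promoters (red) and open promoters with a ratio of 0.6 or more (blue). ETS letters at CpG-poor promoters stand at 23.8% and 21.8% in the 2 central bins, and RUNX letters at 9.80% and 8.64%.

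RUNX letters were more frequent at promoters of T cell genes than at the other open CpG-poor promoters. The 51 peaks of members in the T cell, regulatory T cell, transcription factor and receptor lists held RUNX letters in 49.0% (interval 34.8 to 63.4%), against 22.9% (19.4 to 26.6%) of the other 551 peaks. Those intervals did not overlap, while those for ETS letters without CpG did, at 60.8% (46.1 to 74.2%) against 51.7% (47.5 to 56.0%). The 51 peaks came from 48 genes and 19 motifs were compared, so overlap of intervals is a description and not a test. ETS letters with CpG were rarer at the T cell gene peaks, at 1.96% (0.0496 to 10.45%) against 15.6% (12.7 to 18.9%), without overlap. CCAAT was found in 11.8% (4.44 to 23.9%) of the T cell gene peaks, against 29.2% (25.5 to 33.2%), and IRF letters in 3.92% (0.479 to 13.5%), against 14.0% (11.2 to 17.2%), with overlapping intervals for IRF. The T cell gene peaks had a lower median signal, 10.8 (7.36 to 11.5) against 13.2 (12.4 to 14.1), and more peaks around them, with a median of 4 (3 to 5) others between 1 and 20 kb against 2.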

How the data were processed

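ATAC-seq peaks of 2 libraries of regulatory T cells were deposited by the authors as 3 lists on mm10, called on pooled reads per the file listings. Which aligner and caller were run, and whether read ends were shifted for Tn5, is not given in the sources used here. Each line of the deposited lists gives an interval, a summit, a signal (the authors' enrichment value, reference not stated) and −log10 p and q values. The authors' ranked list gives −log10 of the IDR and of the p of 2 inputs, which are not named. Over the members these p values had a Spearman rho of 0.962. It cannot measure reproducibility, because the IDR threshold had kept peaks for such agreement. The depth is unknown.

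Computed here, with python 3.11.15, numpy 2.4.6, pandas 2.3.3, scipy 1.17.1 and matplotlib 3.10.9, were the members, their distances to GENCODE M21 5′ ends (the outermost base of each gene), CpG ratios, gene list counts, motif matches and other peaks within 20 kb. The sequence was GRCm38.p6, the same assembly as mm10, and chromosome names and lengths were checked. Shares have exact Clopper-Pearson intervals and medians exact order-statistic intervals, both 95%. With 1 biological replicate no test was made, and peaks and genes are not replicates. The functions were tested on simulated data.

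The members and the 17 gene lists, of which 361 of 362 entries matched, were chosen with earlier results of these data known. The lists of interferon-stimulated and MHC class II genes, the Trim family and the count of repeated words were chosen after the values had been seen. Genes named are the 10 peaks of highest and 5 of lowest signal, those nearest the threshold and of lowest ratio, each list's members with up to 3 genes that were not open in list order, and up to 3 leading members of symbol families. Others, such as those with most peaks around them or examples of interferon genes and repeated words, were chosen after their values were seen. In all 13 alternatives were tried. A few genes that this rule selects are not reported here.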

Additional observations from a re-analysis of the deposited data

How the results depend on the processing

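Besides gene list counts, the results rerun were the count of peaks, the share open and the share with more than 1 summit. The medians of signal, width, summit distance and other peaks were rerun too, as were the shares with RUNX, ETS (without CpG) and KLF/SP letters. Below are those shares and medians that moved beyond their interval and the counts of peaks, which have no interval, that differed by over 1.5 times from 602. For none was the cause tested. A ratio below 0.25 gave 6.09% open, ETS letters in 57.7% and KLF/SP letters in 16.9%. A ratio below 0.4 gave 1097 peaks, 11.9% open, a signal of 14.5, a width of 743 bp, 63.9% with more than 1 summit, RUNX letters in 18.3%, ETS in 44.0% and KLF/SP in 31.3%. A ratio over 500 bp on either side gave a summit distance of 116 bp. Summits within 500 bp gave 6.53% open, 737.5 bp and 57 bp. The pseudoreplicated list gave 10.2% open, a signal of 9.68, 541 bp, 46.7% with more than 1 summit, 113 bp and 3 other peaks. Peaks of at least the median signal gave 286 peaks, 4.01% open, 18.4, 824.5 bp, 70.6%, 64 bp and 0 other peaks. Interval midpoints gave 143 bp, ETS in 43.6% and KLF/SP in 15.1%. Motif windows of 50 bp on either side gave RUNX 16.1%, ETS 39.4% and KLF/SP 13.5%, and those of 150 bp gave RUNX 29.1% and ETS 59.1%. Within 50 kb there were 5 other peaks. The count of peaks was 402 at a ratio below 0.25, 515 with the ratio over 500 bp, 476 with summits within 500 bp, 852 in the pseudoreplicated list and between 546 and 608 under the others that change it. All other rerun shares and medians stayed within the interval of the reported one, including all those without the 46 windows of repeated words, with other coding genes allowed near the summit, and with no start site of another gene near it. The remaining results, among them the other motif shares and the comparison of T cell gene peaks with other members, were not rerun. No paired analysis was possible because there is 1 group.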

Other observations

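TATA box letters were seldom found at a set distance ahead of the annotated 5′ end of open CpG-poor promoters. That 5′ end is the outermost base of the gene, and the sequence ahead of other starts was not searched. The letters TATAAA at 35 to 20 bp upstream of the 5′ end, in the sense of the gene, were found at 8 of 553 genes (1.45%, interval 0.627 to 2.83%), against 0.485% and 0.799% in the 2 richer classes, 4.44% (3.98 to 4.95%) of closed CpG-poor 5′ ends and 2.06% of all coding 5′ ends. Among them were Il2, Ecm1, Laptm5, Rsbn1l, Ifi47, Serpinb1a and Cela1. No member lay on chromosome Y, which holds 162 CpG-poor coding genes, and 67 lay on chromosome 7, which holds 1001 of the 7736. Soft-masked repeats covered the summit base in 9.30% of open CpG-poor promoters, against 3.81% and 3.63% in the richer classes and 9.93% of distal peaks.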
